A study of Mus musculus with 9 samples.

Results

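Synaptic vesicle and presynaptic release genes were followed in RNA from the mouse striatum at E17.5, when axons are still growing and few synapses are mature. The set holds 44 genes, chosen by symbol and found by matching the Ensembl identifiers of the count tables to GENCODE M21, out of 44886 genes counted. Each of the 44 symbols matched 1 identifier. The labels name 3 groups of 3 embryos (9 in all), which are Control, Islet1Cre;Ebf1fl/- (here labelled Islet1Cre mutants) and Dlx5/6::Cre;Ebf1fl/- (here labelled Dlx5/6::Cre mutants), all given the C57BL/6 background in the labels and all taken from a cross of Ebf1+/- males carrying a Cre with Ebf1fl/fl females. According to the study's methods the controls were heterozygous embryos. The embryos of both mutant groups carry a null and a floxed allele of Ebf1, which encodes a transcription factor of direct-pathway striatal projection neurons (dSPN). Islet1Cre recombines in dSPN and cholinergic interneurons, and Dlx5/6::Cre in all striatal projection neurons (SPN) and interneurons. The Islet1Cre line was kept on a B6D2F1/J background and the other lines on C57/Bl6. The tissue is whole striatum, so that fewer cells of a type and less RNA per cell cannot be told apart.

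Neurotransmitter is released when a vesicle protein of the VAMP family pairs with syntaxin and SNAP-25 of the plasma membrane. Synaptotagmins sense the calcium that triggers this step, complexins clamp the SNARE complex, Rab3 proteins and their partners bring vesicles to the active zone, Munc13 and RIM proteins prime them, and NSF with SNAP proteins takes spent complexes apart. The same machinery is used before synapses form, for exocytosis in growing axons and in dendrites.

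Counts on genes totalled 16.5 to 41.5 M reads per embryo, and the 44 members together took 0.414 to 0.521% of them. Ebf1 itself did not check the genotypes: its normalised reads were 7945, 14208 and 9697 in the controls, 15343, 13866 and 13210.0 in labelled Islet1Cre mutants, and 11774, 13079 and 15312 in labelled Dlx5/6::Cre mutants. On the log2 scale it differed by 0.41 and 0.33 (adjusted p = 0.599 and 0.399), so that Ebf1 RNA was not lower in either mutant group. Counting all exons cannot reveal a deleted part. By the study's methods the embryos were genotyped by PCR. The paper also reports, from immunostaining, that Ebf1 protein was absent from the striatum of both mutants at E17.5. All genotypes are given here as labelled. Of the 9 libraries 2 were taken as doubtful. The library labelled Islet1Cre;Ebf1fl/- replicate 3 was the shallowest and held both Xist (7270 normalised counts) and Y-linked reads, 145 per M counts against 155.9 in control 2, the embryo with almost no Xist, and 40.7 to 71.9 in the other 7 libraries. The library labelled Dlx5/6::Cre;Ebf1fl/- replicate 1 differed most from its group, with a chi-square over degrees of freedom of 49 and 42.2 against its 2 companions, which had 12.3 between them. Its 6 listed genes of dividing progenitors summed to 12691 normalised counts against 2135 to 3608 in the other 8 and with all 6 genes at their highest there. The same library was also highest for 9 of 9 cortical excitatory neuron genes and for 7 of the 8 genes of radial glia and astrocytes. Control 1 also differed from its companions, with a chi-square over degrees of freedom of 30 and 26.2, where they had 11.8 between them. It was not counted among the 2 doubtful libraries. The codes of the embryos begin with IE or D: all labelled Islet1Cre mutants have IE, all labelled Dlx5/6::Cre mutants have D, 2 controls have IE and 1 has D, so that code and genotype cannot be told apart fully.

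Genes were called changed at a Benjamini-Hochberg adjusted p below 0.05 in edgeR's quasi-likelihood test on all 9 embryos, adjusted over the 16368 genes that passed a filter on low counts. Of the 44 members 43 were tested. Cplx3, a complexin best known from retinal ribbon synapses, was not, with 0.905, 4.08 and 2.89 normalised counts in controls, 1.36, 1.42 and 14.3 in labelled Islet1Cre mutants and 2.16, 10.9 and 5.71 in labelled Dlx5/6::Cre mutants. The replicates are separate embryos.

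Most of the release machinery was present at E17.5 and most members were not called, while 3 calcium sensors, 1 syntaxin and 1 SV2 protein changed. In labelled Dlx5/6::Cre mutants, Syt4, Syt7 and Stx1a fell and Syt2 and Sv2c rose, 5 of 43 members (11.6%) where 2.39% of all genes tested were called. In labelled Islet1Cre mutants, Syt2 rose and was the only call, 1 of 43 (2.33%) where 0.971% of all genes were called. By direction, 0.47% of all genes were called higher and 0.501% lower in labelled Islet1Cre mutants, and 1.05% and 1.34% in labelled Dlx5/6::Cre mutants. At an unadjusted p below 0.05 there were 8 members in labelled Islet1Cre mutants and 12 in labelled Dlx5/6::Cre mutants, 18.6% and 27.9% of those tested, where 7.93% and 15.5% of all genes were. The median log2 fold change of the members was 0.031 and 0.035, beside -0.002 and 0.011 over all genes tested. Between the mutant groups no member and no gene was called (0%) by edgeR, with 2 members (Syt4 and Stx1a) and 844 genes at an unadjusted p below 0.05. DESeq2's Wald test called 18 genes there, no member among them. With control embryos common to both mutant comparisons, their values are given side by side and not as independent findings.

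**Figure D1:**
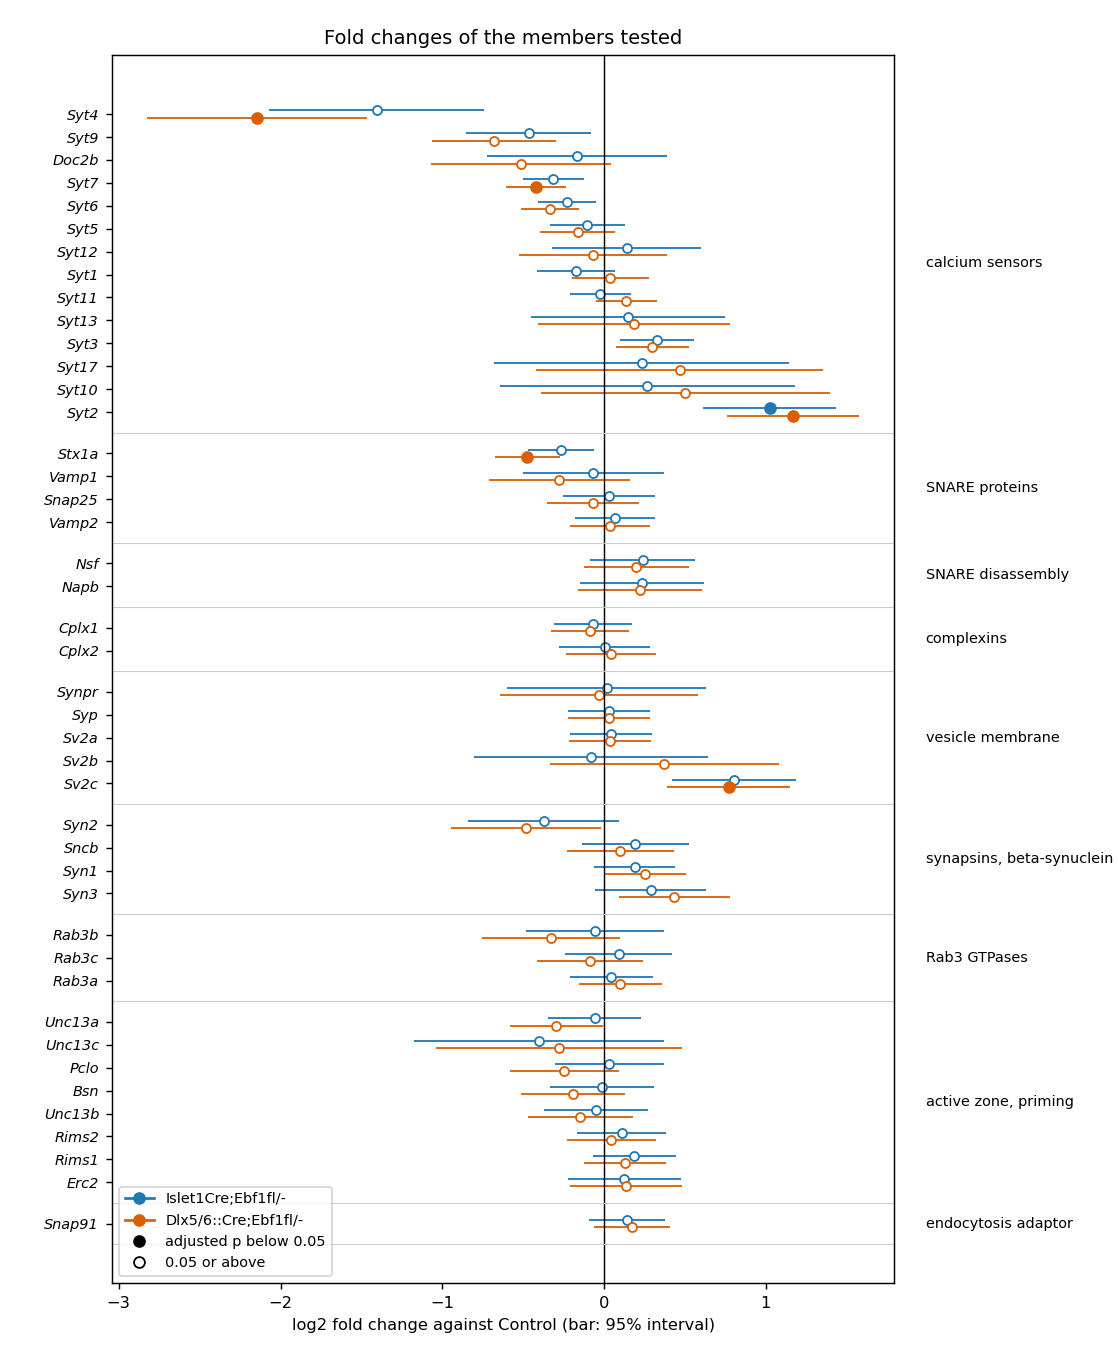
Log2 fold change against Control (x axis) of the 43 members tested (y axis, by role) in labelled Islet1Cre mutants (blue) and labelled Dlx5/6::Cre mutants (orange), with 95% intervals; filled points passed an adjusted p of 0.05. Syt4 stands far to the left and Syt2 and Sv2c to the right, and most other intervals span 0.

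Non-overlap of the groups was a weaker criterion. All 6 mutant embryos lay below all 3 controls for 6 members (Syt4, Syt6, Syt7, Syt9, Stx1a and Syn2), which is 14% of the members tested where 4.08% of all genes did so. They lay above for 2 members, Syt2 and Sv2c, which is 4.65% where 3.63% of all genes did so. Taking labelled Islet1Cre mutants alone, 6 members lay above every control and 7 below (7.83% and 7.28% of all genes). Taking labelled Dlx5/6::Cre mutants alone, 4 lay above and 7 below (9.63% and 11.3% of all genes).

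**Figure D2:**
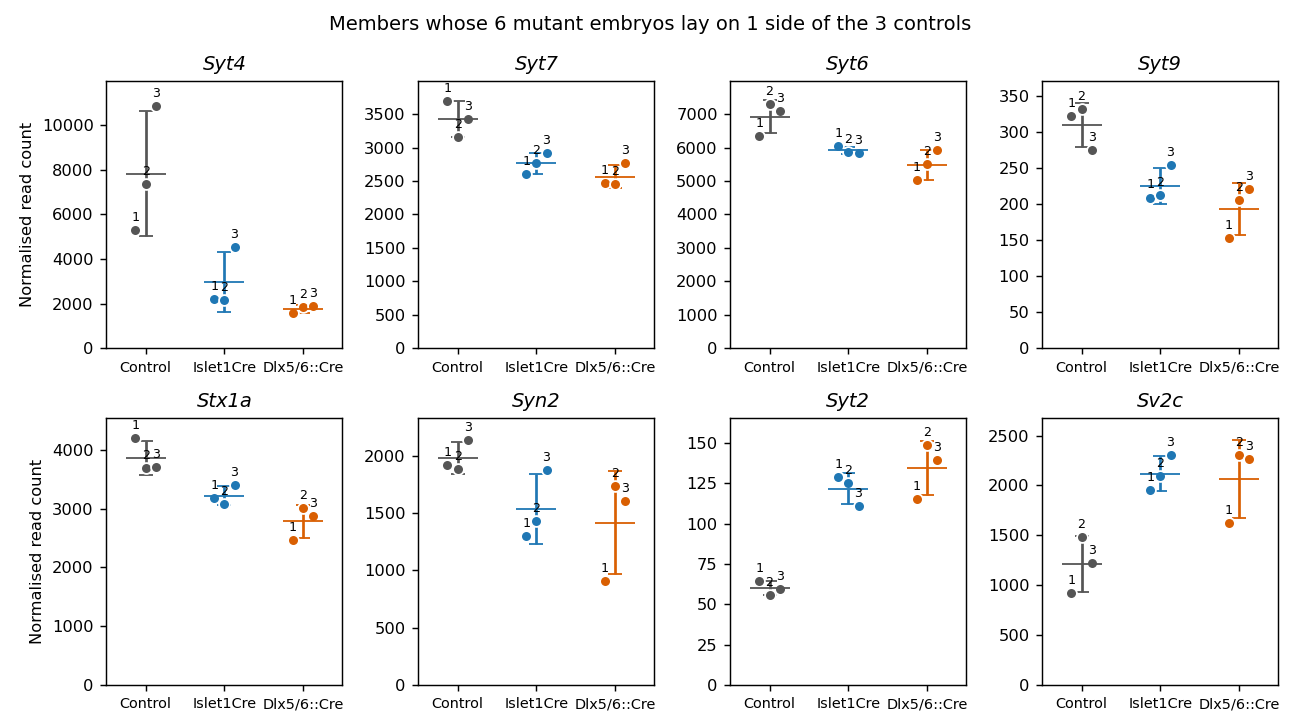
Normalised read count (y axis, from 0) of each embryo for the 8 members whose 6 mutant embryos lay on 1 side of the 3 controls; points carry the replicate number, the horizontal mark is the mean and the bar the SD (n = 3). Syt4 in controls ranged from 5302 to 10843, and its mutant embryos from 1571 to 4532.

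Among the 14 calcium sensors, 1 rose and 2 fell in labelled Dlx5/6::Cre mutants and 1 rose in labelled Islet1Cre mutants. Syt4, a synaptotagmin that does not bind calcium through its first C2 domain and resides on Golgi-derived and dense-core vesicles, lies on chromosome 18 from 31437808 to 31447406 (minus strand, GRCm38). Its normalised read count was 5302, 7351 and 10843 in controls, 2218, 2167 and 4532 in labelled Islet1Cre mutants, and 1571, 1861 and 1887 in labelled Dlx5/6::Cre mutants. Every mutant embryo was below every control, and the controls spread widely, with the control of code D the highest. The log2 fold change was -2.14 (SE 0.31, adjusted p = 0.00538) in labelled Dlx5/6::Cre mutants, which is 0.226 times control. In labelled Islet1Cre mutants it was -1.40 (SE 0.30, adjusted p = 0.0680). The doubtful library, replicate 3, was the highest of its group, and without it the latter value was -1.84 with an adjusted p of 0.0146. Over the 9 fits that left out 1 embryo, Syt4 passed in labelled Islet1Cre mutants in 2, with adjusted p from 0.0146 to 0.316. Of the 8 other alternatives, Syt4 passed there in 4. Part of the Syt4 exons, 14.5%, overlaps the antisense gene Gm26658, and whether strand was used in counting is not given in the sources used here. Gm26658 itself had 24, 21 and 28 counts in controls, 3, 11 and 7 in labelled Islet1Cre mutants and 2, 4 and 3 in labelled Dlx5/6::Cre mutants.

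Syt7, a slow calcium sensor with high affinity that acts in asynchronous release and in lysosome exocytosis, lies on chromosome 19 from 10389090 to 10453180 (plus strand) and had 3703, 3161 and 3422 normalised counts in controls. In labelled Islet1Cre mutants it had 2605, 2775 and 2917, and in labelled Dlx5/6::Cre mutants 2473, 2456 and 2769. The 2 mutant groups overlapped with each other and neither overlapped with the controls. The decrease passed only in labelled Dlx5/6::Cre mutants, with a log2 fold change of -0.42 (SE 0.08, adjusted p = 0.0294) against -0.31 (SE 0.08, adjusted p = 0.167) in labelled Islet1Cre mutants.

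Syt2, a fast sensor of synchronous release that is abundant in hindbrain and in fast-spiking interneurons, was the lowest of the 43 members tested, at 0.260 ± 0.0195 CPM per kb of merged exons in controls (SD, n = 3). Its counts were 64.2, 55.5 and 59.6 in controls, 129.1, 124.9 and 111.0 in labelled Islet1Cre mutants and 115.5, 148.4 and 139.4 in labelled Dlx5/6::Cre mutants. It rose in both mutant groups, with log2 fold changes of 1.02 (SE 0.19, adjusted p = 0.0334) and 1.17 (SE 0.18, adjusted p = 0.00949), or 2.03 and 2.25 times control. At 0.527 and 0.584 CPM per kb in the mutant groups Syt2 stayed far below Syt1, the main fast sensor of forebrain synapses, which stood at 16.7 ± 1.34 CPM per kb in controls (SD, n = 3). Syt5, another synaptotagmin, was the highest of all 44 members at 133 ± 7.65 in controls.

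Syt9, a further sensor of fast release, had 322.9, 332.4 and 275.1 normalised counts in controls, 209.3, 212.8 and 254.1 in labelled Islet1Cre mutants, and 153.3, 205.8 and 221.8 in labelled Dlx5/6::Cre mutants. The groups did not overlap with the controls, yet neither difference passed (log2 fold changes -0.47, adjusted p = 0.436, and -0.68, adjusted p = 0.0780). Syt6, a disulfide-linked synaptotagmin, had 6357, 7303 and 7103 counts in controls, 6036, 5866 and 5838 in labelled Islet1Cre mutants and 5021, 5505 and 5922 in labelled Dlx5/6::Cre mutants. It too lay below every control in all 6 mutant embryos without passing (-0.23, adjusted p = 0.376, and -0.34, adjusted p = 0.0623). Syt3, a sensor of high calcium affinity, was 758.0, 844.4 and 762.8 in controls, 1036, 974.1 and 964.7 in labelled Islet1Cre mutants, and 838.7, 1060 and 1009 in labelled Dlx5/6::Cre mutants, with 1 embryo of the last group inside the range of controls. Doc2b, a soluble sensor of spontaneous release, was 1556, 2482 and 2222 in controls, 1805, 1604 and 2182 in labelled Islet1Cre mutants, and 861.4, 1785 and 1726 in labelled Dlx5/6::Cre mutants. Its groups overlapped. The remaining calcium sensors, Syt1, Syt5, Syt10, Syt11, Syt12, Syt13 and Syt17, did not pass in either comparison, and Syt10, Syt12 and Syt17 were low, at under 1 CPM per kb in controls.

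Of the 4 SNARE proteins, Stx1a, the neuronal syntaxin of the plasma membrane, fell in labelled Dlx5/6::Cre mutants. Its normalised read count was 4204, 3695 and 3703 in controls, 3179, 3083 and 3406 in labelled Islet1Cre mutants, and 2464, 3014 and 2876 in labelled Dlx5/6::Cre mutants. All 6 mutant embryos lay below the controls, and the 2 mutant groups did not overlap with each other. The log2 fold change was -0.47 (SE 0.09, adjusted p = 0.0246) in labelled Dlx5/6::Cre mutants and -0.27 (SE 0.09, adjusted p = 0.347) in labelled Islet1Cre mutants. Its partners did not pass. Vamp2, the main vesicle SNARE, stood at 88.3 ± 4.77, 92.6 ± 5.99 and 90.7 ± 14.1 CPM per kb in control, Islet1Cre and Dlx5/6::Cre embryos (SD, n = 3 each). Snap25 had 4584, 4604 and 4361 counts in controls and 4406, 4707 and 4736 in labelled Islet1Cre mutants, and of labelled Dlx5/6::Cre mutants replicate 1 had 3289 and the others 5034 and 4620. Vamp1, the isoform of brainstem and spinal cord, was at 0.737 ± 0.067 CPM per kb in controls, far below Vamp2. Napb and Nsf, which disassemble SNARE complexes, did not pass in either comparison.

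Among the 5 vesicle membrane proteins, Sv2c was the one called. SV2 proteins are transporter-like glycoproteins of vesicles, and SV2C is the isoform enriched in basal ganglia. Sv2c had 925.3, 1487 and 1220 normalised counts in controls, 1957, 2091 and 2303 in labelled Islet1Cre mutants, and 1619, 2310 and 2265 in labelled Dlx5/6::Cre mutants. All 6 mutant embryos lay above the controls, with the lowest of them, replicate 1 of the latter group, close to control 2. The log2 fold change was 0.77 (SE 0.17, adjusted p = 0.0441) in labelled Dlx5/6::Cre mutants and 0.80 (SE 0.17, adjusted p = 0.0692) in labelled Islet1Cre mutants, or 1.71 and 1.74 times control. Of these only the first passed in the main fit. Over the 9 fits that left out 1 embryo, the first passed in 2 and the second in 1. In the 8 other alternatives they passed in 6 and 5. In edgeR fits of only the 6 samples compared, the order was reversed, with adjusted p of 0.127 and 0.0278. Sv2a, the ubiquitous isoform, was the more abundant per length in every group, at 51.2 ± 3.06 CPM per kb in controls against 4.14 ± 0.952 for Sv2c (SD, n = 3), and did not pass. Sv2b, the isoform of excitatory neurons, stood at 0.609 ± 0.189. Synaptophysin (Syp) was at 57.2 ± 2.13, 58.5 ± 8.01 and 58.4 ± 7.24 CPM per kb in control, Islet1Cre and Dlx5/6::Cre embryos, and synaptoporin (Synpr), its relative, was most variable in the Dlx5/6::Cre group with 1030, 2744 and 2091 counts.

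**Figure D3:**
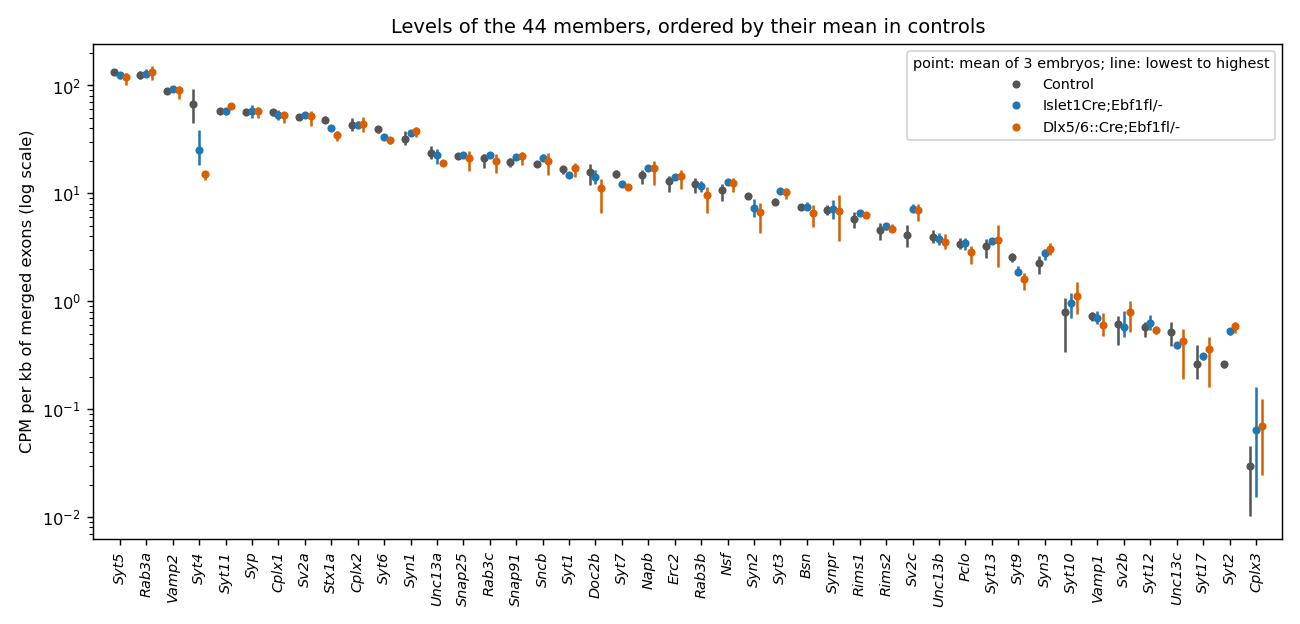
Level per length, in CPM per kb of merged exons on a log axis, of the 44 members (x axis) ordered by their control mean, with points at the mean of 3 embryos and lines from the lowest to the highest embryo in control (grey), Islet1Cre (blue) and Dlx5/6::Cre (orange) groups. Control means ran from 133 for Syt5 to 0.0295 for Cplx3, and the separation of Syt4, Stx1a, Syt7, Sv2c and Syt2 from their controls is visible against the overlap of most others.

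Synapsins tether vesicles to each other and to actin. Syn2 had 1919, 1889 and 2140 normalised counts in controls, 1298, 1430 and 1881 in labelled Islet1Cre mutants and 908.9, 1738 and 1608 in labelled Dlx5/6::Cre mutants. Both lowest mutant values were replicate 1 of their group, and the highest Islet1Cre embryo was close to the lowest control. Neither difference passed (log2 fold changes -0.37, adjusted p = 0.805, and -0.48, adjusted p = 0.302). Without both doubtful libraries, a setting added after the data were seen, the first was -0.54 with an adjusted p of 0.0186. Without Islet1Cre replicate 3 alone it was also -0.54, but with an adjusted p of 0.638. Syn2 passed in labelled Islet1Cre mutants in 0 of the 9 fits that left out 1 embryo. Syn1 was the highest synapsin per length, at 31.9 ± 4.99, 36.4 ± 1.03 and 38 ± 4.21 CPM per kb. Syn1, Syn3 and beta-synuclein (Sncb), a small protein that binds vesicle membranes, did not pass.

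Complexins, Rab3 GTPases, active zone proteins and Snap91 held no called member. Complexin genes Cplx1 and Cplx2 stood at 56.2 ± 3.95 and 43 ± 6.11 CPM per kb in controls (SD, n = 3). Rab3a, the vesicle GTPase that binds RIM proteins and rabphilin, was second of all 44 members at 125 ± 9.77 in controls, 129 ± 12.2 in labelled Islet1Cre mutants and 134 ± 19.7 in labelled Dlx5/6::Cre mutants. Its relatives followed in the order Rab3c (21.2 ± 3.40) and Rab3b (12.2 ± 1.96). Of the 8 active zone and priming genes, Unc13a, the Munc13 of most forebrain synapses, was highest in controls at 23.5 ± 3.41 CPM per kb. Its counts of 7278, 6837 and 7770 in labelled Dlx5/6::Cre mutants lay below the 10387, 7975 and 8464 of controls, without passing (adjusted p = 0.307). The scaffolds Bsn, Pclo, Erc2, Rims1 and Rims2 ranged from 3.41 (Pclo) to 13.1 (Erc2) CPM per kb, and Unc13c, a Munc13 of cerebellum, stood at 0.522. Snap91, the clathrin adaptor AP180 that retrieves VAMP2, did not pass.

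For members that were not called, the width of the interval limits what can be said. The counts given here cover all 43 members tested, those called included. The 95% interval lay within a log2 fold change of 1 in either direction for 37 of 43 members in labelled Islet1Cre mutants and for 34 in labelled Dlx5/6::Cre mutants. A log2 fold change under 0.5 in size was seen for 93.0% and 86.0% of members, against 90.3% and 83.9% of all genes tested.

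Of 109 other presynaptic genes, set in 5 lists, 103 were tested. Rph3a, the gene of rabphilin, a C2-domain effector of Rab3, fell in both mutant groups, with 12510, 10032 and 12514 normalised counts in controls, 4274, 3319 and 5962 in labelled Islet1Cre mutants, and 2864, 3890 and 3849 in labelled Dlx5/6::Cre mutants. Its log2 fold changes were -1.38 (SE 0.20, adjusted p = 0.0139) and -1.73 (SE 0.20, adjusted p = 0.00216). It was 1 of 10 tested among the other synaptotagmins and C2 sensors. Stxbp2, a Munc18 protein of non-neuronal exocytosis, rose in labelled Islet1Cre mutants (log2 fold change 0.73, SE 0.11, adjusted p = 0.0139), with 1011, 898.3 and 916.7 counts in controls and 1458, 1745 and 1500 in the mutants. It was 1 of 22 tested among other SNAREs and regulators, of which none passed in labelled Dlx5/6::Cre mutants. Over all 103, 1 rose and 1 fell in labelled Islet1Cre mutants and 1 fell in labelled Dlx5/6::Cre mutants. Of all genes tested, 0.971% and 2.39% were called. No gene passed among the 23 other vesicle membrane proteins, the 21 other active zone genes and the 27 genes of vesicle endocytosis tested, and the median log2 fold change over all 103 was 0.024 and -0.004.

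The promoters of the called members are shown because EBF proteins bind DNA directly, at the palindromic core CCCNNGGG. Windows of 250 bases before the RefSeq start on GRCm38.p6 were found for 33 of the 44 members, the first listed for each gene. Of the called members, Syt2 (chr1:134646362-134646611, plus strand), Stx1a (chr5:135023232-135023481, plus strand) and Sv2c (chr13:96132578-96132827, minus strand) had one. Capitals mark the core, which reads the same on both strands by its pattern.
Syt2: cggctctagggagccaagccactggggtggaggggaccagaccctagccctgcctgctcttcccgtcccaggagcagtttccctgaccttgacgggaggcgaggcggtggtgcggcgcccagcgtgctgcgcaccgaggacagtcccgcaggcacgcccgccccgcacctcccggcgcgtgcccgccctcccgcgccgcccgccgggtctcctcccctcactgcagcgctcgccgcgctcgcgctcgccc
Stx1a: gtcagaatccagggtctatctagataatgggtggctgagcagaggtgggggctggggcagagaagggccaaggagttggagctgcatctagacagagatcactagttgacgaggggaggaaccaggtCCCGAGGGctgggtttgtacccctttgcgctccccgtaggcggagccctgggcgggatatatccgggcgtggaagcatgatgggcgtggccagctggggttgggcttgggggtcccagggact
Sv2c: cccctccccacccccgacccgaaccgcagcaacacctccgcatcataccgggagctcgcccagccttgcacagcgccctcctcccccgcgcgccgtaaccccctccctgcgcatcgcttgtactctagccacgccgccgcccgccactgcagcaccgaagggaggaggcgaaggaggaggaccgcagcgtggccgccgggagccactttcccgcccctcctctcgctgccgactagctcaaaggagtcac
The core was present once in the Stx1a window, as CCCGAGGG beginning 123 bases before the start, and in neither of the others. Over the 33 members 6 windows (18.2%) held it, beside 3150 of 27025 promoters in the table (11.7%). The others were Cplx2, Rab3b, Rab3c, Rims1 and Unc13b, and none of these was called. A match is a description of the sequence and shows no binding.

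The library labelled Dlx5/6::Cre;Ebf1fl/- replicate 1 was low for the set as a whole. It had the lowest value of all 9 embryos for 24 of 43 members, where it was lowest for 21.7% of all genes tested. It lay below its group mean for 39 of 43 members, and for 50.1% of all genes tested. Its members deviated from the group mean by a median of -0.254 on the log2 scale, against 0.136 and 0.122 in its companions. Synpr, Doc2b, Rab3b, Snap25 and Syn2 were among the members lowest in this library. Control 1 came next, with a median of -0.109 and 12 of 43 members at the lowest value, where it was lowest for 18.2% of all genes tested. The part of the progenitor and cortical genes in this was not tested. Without Dlx5/6::Cre replicate 1, 3 members passed in labelled Islet1Cre mutants (Syt2, Syt4 and Sv2c) and 6 in labelled Dlx5/6::Cre mutants (Syt2, Syt3, Syt4, Syt7, Stx1a and Sv2c). Without Islet1Cre replicate 3, the library with both Xist and Y-linked reads, Syt4 alone passed in labelled Islet1Cre mutants, and 4 members passed in labelled Dlx5/6::Cre mutants, Sv2c being lost. Without both, 4 passed in each, with Syt2, Syt4 and Sv2c in both comparisons, Syn2 in labelled Islet1Cre mutants and Stx1a in labelled Dlx5/6::Cre mutants. Calls over all genes moved in these fits too, from 159 and 392 of 16368 genes with all embryos. They were 397 and 613 of 16652 without Dlx5/6::Cre replicate 1, and 101 and 305 of 16662 without Islet1Cre replicate 3. Without both they were 333 and 501 of 16579. Without control 1 they were 31 and 143 of 16586, with 0 and 2 members among them.

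**Figure D4:**
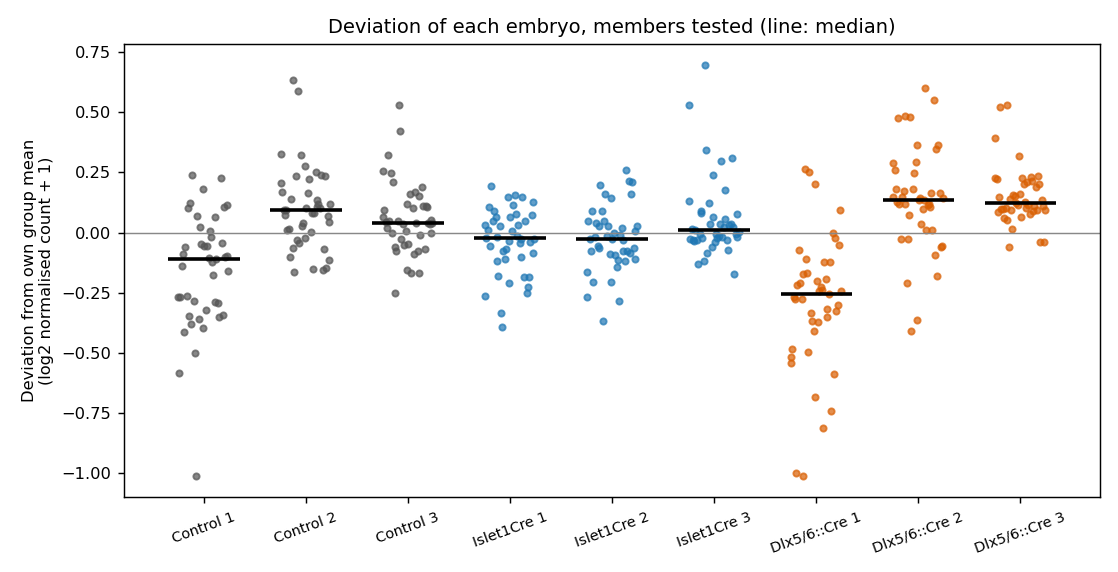
Deviation of each embryo from its own group mean (y axis, log2 of normalised count + 1) for the 43 members tested, with the median of the members as a black line. The medians are -0.109 for control 1 and -0.254 for Dlx5/6::Cre replicate 1, and lie between -0.025 and 0.136 for the other 7 embryos.

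The calls were sensitive to single libraries and to the embryo code. Syt2 and Syt4 passed in labelled Dlx5/6::Cre mutants in each of the 9 fits that left out 1 embryo, whereas Syt7 passed in 5, Stx1a in 5 and Sv2c in 2. Syt7 was lost without control 1 or 3 or without Dlx5/6::Cre replicate 2 or 3. Stx1a was lost without any 1 of the 3 controls or without Dlx5/6::Cre replicate 3. Sv2c passed only without control 2 or without Dlx5/6::Cre replicate 1. The rise of Syt2 in labelled Islet1Cre mutants passed only without Dlx5/6::Cre replicate 1 or 2, with log2 fold changes of 0.97 to 1.08 over the 9 fits. With the embryo code in the model, which sets labelled Dlx5/6::Cre mutants against the single control of code D and labelled Islet1Cre mutants against the 2 of code IE, Syt4 alone passed (log2 fold change -2.61, adjusted p = 0.0249, in Dlx5/6::Cre embryos). Syt2 was then 1.02 and 1.17 higher on the log2 scale (adjusted p = 0.127 and 0.225) and Sv2c 0.81 and 0.76 higher (adjusted p = 0.205 and 0.482), close in size to those above.

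Markers of other cell types were read beside these values. Of 14 lists, 12 held no called gene, but the sums of some lay apart from the controls. The 9 cortical excitatory neuron genes, none of which passed, had log2 fold changes of 0.86 to 2.72 (median 1.03) in labelled Dlx5/6::Cre mutants. They summed to 6809, 2991 and 3367 normalised counts there against 2786, 2096 and 1176 in controls, so that each of these 3 mutant embryos was above every control, and to 2120, 1136 and 2151 in labelled Islet1Cre mutants, within the range of controls but for replicate 2. The 6 microglia genes summed to 2822, 2923 and 2643 in labelled Dlx5/6::Cre mutants against 2335 to 2554 in controls, and the 6 progenitor genes to 2963, 3414 and 3608 in labelled Islet1Cre mutants against 2135 to 2858. In the list of dSPN genes 2 of 8 fell in labelled Dlx5/6::Cre mutants, Slc35d3 (log2 fold change -0.91, adjusted p = 0.00425) and Chrm4, the muscarinic M4 receptor (-1.48, adjusted p = 0.00391), and Slc35d3 fell in labelled Islet1Cre mutants (-0.62, adjusted p = 0.0409). Foxp1, a transcription factor of SPN, fell in labelled Dlx5/6::Cre mutants (-0.53, adjusted p = 0.0305), 1 of 9 in the list of generic SPN genes. The dSPN list summed to 23183 to 33765 normalised counts in controls, 30639 to 31684 in labelled Islet1Cre mutants and 23197 to 29728 in labelled Dlx5/6::Cre mutants. Ebf1 is 1 of the 8 genes and makes up a large part of these sums, which therefore do not show the level of the others. The median log2 fold change of the list was -0.267 (range -0.862 to 0.668) in labelled Islet1Cre mutants. In labelled Dlx5/6::Cre mutants it was -0.583 (range -1.48 to 0.534). The 6 genes tested of indirect-pathway SPN (iSPN) had medians of 0.074 (range -0.023 to 0.228) and 0.197 (range 0.151 to 0.419), and none passed. The 8 GABAergic interneuron genes summed to 10672 to 11706 in controls and 10324 to 11814 in labelled Islet1Cre mutants. In labelled Dlx5/6::Cre mutants they summed to 6819, 10699 and 9270. The 8 pan-neuronal genes summed to 215988 to 226811, 200821 to 220629 and 199107 to 223131 in the same order of groups. Of the 94 listed markers 93 were matched (Gpr52, in the iSPN list, was not), and each of these had a count in at least 1 embryo. The part of these cell types in the changes of Syt2, Syt4, Syt7, Stx1a and Sv2c was not tested.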

How the data were processed

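Striatal polyadenylated RNA of 9 embryos at E17.5 was sequenced as 1 library per embryo over 75 bp from a strand-specific kit. The authors deposited counts, whole reads per Ensembl gene without normalization. Per the study's methods and the submitters' processing notes, the authors filtered the reads, aligned them with STAR 2.4.0k, discarded reads with several positions and used HTSeq 0.5.3 to count on Ensembl 81 genes. Up to 15.7% of the 75 bp windows of a member (Syp) also occur in transcripts of another gene, antisense overlap included, and 27 of 44 members share none. The authors' own normalized values were not used.

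Groups and replicate numbers came from the labels. edgeR 4.0.16 (R 4.3.3) was fitted to all 9 samples with 3 genotypes, filterByExpr with a minimum count of 10, TMM scaling, quasi-likelihood tests and Benjamini-Hochberg adjustment over all 16368 genes, with a threshold of 0.05. The SE was obtained from the log2 fold change and its F statistic. Normalised counts are counts over DESeq2 1.42.0 size factors, and levels per length are TMM-scaled CPM per kb of merged GENCODE M21 exons. The edgeR and DESeq2 steps were tested on simulated data. With 3 against 3 an exact permutation test of 1 gene cannot go below 0.1.

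The members, lists and rules were chosen with earlier results of these data known. Members named with values were those past the threshold, those with all 6 mutant embryos on 1 side of the controls, the highest of each role and close relatives. Other presynaptic genes were named where they passed. The alternatives tried were the Wald test of DESeq2, DESeq2 size factors in edgeR, other filters, only the 6 samples compared, the embryo code, a replicate block and each embryo left out.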

Additional observations from a re-analysis of the deposited data

How the results depend on the processing

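The 8 members named by the rules all had their 6 mutant embryos on 1 side of the controls. That choice left little room for a log2 fold change to reverse, and none reversed under any alternative. Of their 272 values, 224 kept their side of the threshold, with 32 weaker and 16 stronger. The 224 include comparisons that did not pass in the main fit and stayed so. All 32 weaker values were calls of the main fit that were lost, so the 224 do not measure how stable the calls were. The calls themselves moved more. For labelled Islet1Cre mutants against Control (159 genes, 1 member), DESeq2 gave 401 genes and 4 members, no filter on low counts 311 and 3, only the 6 samples compared 259 and 2, the embryo code 61 and 0, and both doubtful libraries left out (a choice made after seeing the data) 333 and 4. For labelled Dlx5/6::Cre mutants (392 genes, 5 members), DESeq2 gave 862 genes, no filter 708, only the 6 samples compared 181 and 2 members, and the embryo code 32 and 1. Between the mutants (0 genes), DESeq2 gave 18, no filter 13, and the 6 samples or both doubtful libraries left out 2 each. Leaving out each embryo gave 15 to 397 genes and 0 to 3 members, 143 to 613 and 2 to 6, and 0 to 4 and 0 to 0, in the same order. DESeq2 also called Syt6 and Syt9 in labelled Dlx5/6::Cre mutants. The cause of these shifts was not tested. Deviations from group means had a mean r of -0.022 (range -0.224 to 0.167) for equal replicate numbers, against 0.011 for different numbers. Deviations from a mean of 3 embryos cancel within a group, which ties these 2 means together. They therefore cannot decide whether the numbers pair the samples. With a replicate block 2 members, Syt4 and Sv2c, passed in labelled Islet1Cre mutants in place of Syt2, and 5 in labelled Dlx5/6::Cre mutants. Counts of Cplx3 were too low for a test.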
